A study of Homo sapiens with 12 samples.

Results

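Replication-dependent histone genes encode the bulk linker histone H1 and the core histones H2A, H2B, H3 and H4. The 40 genes described here are those whose symbol starts with HIST1H, HIST2H, HIST3H or HIST4H, pseudogene symbols left out, and that were listed in at least 1 of 4 comparison tables deposited by the authors. They were 40 of the 75 genes with such symbols in GENCODE 29 and of 23375 genes listed in any table, and 33 of them were listed in all 4 tables. By class they were 3 H1, 8 H2A, 16 H2B, 4 H3 and 9 H4 genes, out of 6 H1, 17 H2A, 23 H2B, 14 H3 and 15 H4 genes annotated. By cluster 32 lay in HIST1 on chromosome 6, 5 in HIST2 and 2 in HIST3 on chromosome 1, and 1 was the lone HIST4 gene on chromosome 12. One of them, HIST2H2BC, is annotated as a transcribed pseudogene in GENCODE 29 although its symbol passed the rule.

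RNA was sequenced from SUM159, a triple-negative line established from a primary breast tumour, in 12 libraries that form 4 groups of 3. The groups were cells with a hairpin against E4F1 (shE4F1) given gemcitabine, shE4F1 cells left untreated, cells with a scrambled control hairpin (shCTRL) given gemcitabine, and shCTRL cells left untreated. Gemcitabine is a deoxycytidine analogue that stalls DNA synthesis, and it was given at 140 nM for 24 h. E4F1 is a zinc finger protein that acts as a transcription factor and as a ubiquitin ligase. Every group was 1 cell line, the labels name 1 hairpin per arm, and nothing in them tells if a group's 3 libraries came from separate cultures. The p-values therefore reflect the spread among these libraries alone, and that spread may be technical.

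E4F1 itself, the check of the hairpin, was lower in shE4F1 than in shCTRL cells by -0.99 ± 0.26 (log2, SE) untreated and by -0.91 ± 0.16 under gemcitabine in the authors' deposited tables (adjusted p = 0.000778 and 1.47e-07). Of the receptors that a triple-negative line lacks, PGR was not listed and ESR1 had a mean normalised count of 9.21 in the untreated knockdown table, while ERBB2, whose protein defines that label, had 2833 in the authors' deposited table. The epithelial gene EPCAM was not listed, whereas the keratin gene KRT18 had 2330 and the mesenchymal gene VIM 66531 in the same deposited table. For each gene the tables hold the mean normalised count of the compared libraries, the log2 fold change and its standard error (SE), and an adjusted p. A gene is called higher or lower here at an adjusted p under 0.05. Values of single libraries are not analysed here, because the columns of the count table could not be matched to the labels, so each value below carries the SE of its comparison of 3 libraries with 3. The deposited fold changes of weakly counted genes were drawn towards 0, and the histone means ran from 2.54 to 1004 normalised counts with SEs of up to 0.54.

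Cells need histone proteins in the amounts set by DNA synthesis, and the replication-dependent genes supply them during S phase. Their mRNAs are the exception among animal messages: most have no intron and end in a stem-loop, to which the protein SLBP binds and behind which the U7 small nuclear ribonucleoprotein directs the cut, in place of a poly(A) tail. When DNA synthesis is blocked these stem-loop mRNAs are degraded quickly. Some of the same genes also give longer, polyadenylated transcripts, which are known from differentiated and resting cells. The library kit selects RNA by its poly(A) tail, so mainly transcripts with such a tail enter these libraries.

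The sequences that tell these kinds of end apart are shown first, because several of the genes with the largest changes are annotated with both. Among the 40 listed genes 27 had the 16-base stem-loop in an annotated GENCODE 29 transcript (GRCh38), in 6 versions. The forms below are written 5′ to 3′ as DNA, with the paired stem in capitals and the loop in lower case.
Form of 13 genes, among them HIST1H2AC and HIST2H2BE: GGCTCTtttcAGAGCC
Form of 5 genes, among them HIST1H4H and HIST1H4E: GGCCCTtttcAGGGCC
Form of 4 genes, among them HIST1H2BC and HIST1H2BD: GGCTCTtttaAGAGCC
Form of HIST1H3E alone: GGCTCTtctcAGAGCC
The stem-loop of HIST1H2AC lies at chr6:26124669-26124684 on the + strand and that of HIST1H4H at chr6:26285131-26285146 on the - strand. In 21 of the listed genes an annotated transcript went on for at least 100 bases behind the stem-loop. Of these 21, 14 (66.7%) had the poly(A) signal AATAAA or ATTAAA in the last 40 bases, against 72.1% of the longest protein-coding transcripts of 19669 genes. The signals at the ends of 4 strongly changed genes are shown with their neighbouring bases, the signal in capitals, from GENCODE 29.
HIST1H2AC, chr6:26139082-26139105, + strand: tgaggtAATAAAaggtaatgcaaa
HIST1H4H, chr6:26277609-26277631, - strand: tgaaaaAATAAAtgtttaagcca
HIST2H2BE, chr1:149884465-149884488, - strand: gttattAATAAAgttaccaattaa
HIST1H3E, chr6:26227446-26227469, + strand: atgtaaAATAAAagattactgaac
A match of this kind describes the annotated transcript and does not show which end was used in these cells.

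The comparison of shE4F1 with shCTRL cells asks what E4F1 depletion did to these transcripts with and without the drug. Under gemcitabine, 23 of the 35 histone genes with an adjusted p were higher in shE4F1 cells and 1 was lower, where 41.0% of all 22433 genes were called, 20.3% higher and 20.8% lower. The median over the 35 was 1.13 (log2 fold change), beside 0.00 over all genes. In untreated cells 13 of 33 were higher and 1 was lower, where 36.7% of 19472 genes were called, 17.5% higher and 19.3% lower. The median was then 0.60, beside -0.01 over all genes. The 11 histone genes with a mean normalised count of at least 50 under gemcitabine were all called higher, and of the 13 such genes in untreated cells 9 were called higher and 1 lower. That mean includes the shE4F1 libraries, so genes that rose there pass the cutoff more easily. These counts are therefore no separate support for the rise. SEs were wide for this set in the authors' deposited tables, with a median of 0.40 under gemcitabine and 0.39 untreated, beside 0.21 over all tested genes in both. Derived from the other tables, whose summed SEs are larger by construction, the knockdown under gemcitabine gave 13 higher and 0 lower histone genes. The values by that route were also lower for most histone genes.

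H2A genes held the largest single change, but as a class they were called less often untreated. Under gemcitabine 5 of 7 rose and none fell, with a median of 0.95 (log2). Untreated, 1 of 6 rose and 1 fell, with a median of 0.17, where 17.5% of all genes were higher and 19.3% lower. HIST1H2AC, a core histone gene at chr6:26124145-26139116 (GRCh38, + strand), was higher in shE4F1 cells by 4.74 ± 0.18 (log2, 26.7-fold) under gemcitabine and by 2.1 ± 0.18 (4.30-fold) untreated in the authors' deposited tables (adjusted p = 5.35e-141 and 7.93e-29). It also had the highest mean of any listed histone gene, 1004 normalised counts in the untreated table. HIST1H2AG was at 0.92 ± 0.26 under gemcitabine (adjusted p = 0.00175) and 0.44 ± 0.28 untreated (adjusted p = 0.228) in the authors' deposited tables. HIST1H2AI and HIST1H2AK were called higher under gemcitabine at 1.85 ± 0.52 and 1.59 ± 0.52 in the authors' deposited table, with means of only 4.13 and 5.16 normalised counts. HIST1H2AI was not listed in the comparison of treated with untreated shCTRL cells, only where shE4F1 cells entered. HIST3H2A, an H2A gene outside the large clusters, was the 1 member lower in untreated shE4F1 cells, at -0.80 ± 0.23 (adjusted p = 0.00203), and was higher under gemcitabine, at 0.95 ± 0.30 (adjusted p = 0.00559), in the authors' deposited tables.

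The H2B genes were the class with the most calls: 10 of 13 rose under gemcitabine and 8 of 13 untreated, none fell, and their medians were 1.49 and 1.30 (log2). Leading them under gemcitabine were HIST1H2BD at 3.24 ± 0.22 (9.43-fold), HIST2H2BE at 3.20 ± 0.23 (9.17-fold) and HIST2H2BF at 3.05 ± 0.44 (8.25-fold) in the authors' deposited table. Untreated, the same 3 genes were at 2.54-fold, 3.71-fold and 2.82-fold in the authors' deposited table, all called. HIST1H2BK was at 2.92 ± 0.26 and HIST1H2BC at 2.60 ± 0.29 under gemcitabine, against 1.66 ± 0.29 and 1.57 ± 0.28 untreated, in the authors' deposited tables. The remaining H2B genes called in both conditions had like values in each: HIST1H2BE was at 1.13 ± 0.35 and 1.30 ± 0.35, HIST1H2BG at 1.49 ± 0.39 and 1.38 ± 0.39, and HIST1H2BN at 0.68 ± 0.17 and 0.76 ± 0.20, under gemcitabine and untreated, in the authors' deposited tables. HIST1H2BF at 1.90 ± 0.48 and HIST1H2BH at 1.33 ± 0.31 were called under gemcitabine alone, with 0.43 ± 0.41 and 0.16 ± 0.30 untreated, in the authors' deposited tables.

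Among the H3 genes 3 of 4 rose under gemcitabine and 1 of 4 untreated. HIST1H3E, the H3 gene with the highest mean, rose by 2.37 ± 0.22 under gemcitabine and by 1.53 ± 0.25 untreated in the authors' deposited tables. HIST1H3H was at 1.72 ± 0.31 (adjusted p = 2.65e-07) and 0.44 ± 0.31 (adjusted p = 0.282), and HIST1H3G at 1.39 ± 0.45 (adjusted p = 0.00612) and 0.87 ± 0.42 (adjusted p = 0.0948), under gemcitabine and untreated, in the authors' deposited tables. The H4 genes split: 3 of 8 rose and 1 fell under gemcitabine, and 2 of 7 rose untreated. HIST1H4H rose most of all listed histone genes in untreated cells, by 2.70 ± 0.23 (6.49-fold, adjusted p = 9.10e-30), and by 3.17 ± 0.22 (8.97-fold) under gemcitabine in the authors' deposited tables. HIST1H4E rose by 1.88 ± 0.31 under gemcitabine and by 1.23 ± 0.34 untreated, and HIST1H4I was at 1.13 ± 0.47 (adjusted p = 0.0423) and 0.62 ± 0.43 (adjusted p = 0.272), in the authors' deposited tables. HIST4H4, which stands alone on chromosome 12, was the 1 member that fell in shE4F1 cells under gemcitabine, at -1.13 ± 0.40 (adjusted p = 0.0122), and was at 0.94 ± 0.45 untreated (adjusted p = 0.0858) in the authors' deposited tables.

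Of the linker histones, which bind the DNA between nucleosomes, HIST1H1C had by far the most counts of its class, with means of 429 and 651 normalised counts in the gemcitabine and untreated tables. HIST1H1C rose by 1.08 ± 0.15 (2.11-fold) under gemcitabine and by 0.79 ± 0.19 (1.73-fold) untreated in the authors' deposited tables (adjusted p = 3.55e-11 and 0.00017). HIST1H1D was at 1.67 ± 0.52 under gemcitabine (adjusted p = 0.00416) and -0.66 ± 0.50 untreated (adjusted p = 0.326), with means of 4.77 and 9.76 normalised counts, in the authors' deposited tables. HIST1H1E was called in neither, at 0.07 ± 0.50 and -0.46 ± 0.42 in the authors' deposited tables.

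Gemcitabine in shCTRL cells moved these transcripts the other way. Of 33 histone genes with an adjusted p, 17 were lower and 1 was higher, where 28.0% of 20002 genes were called, 13.5% lower and 14.5% higher. The median was -0.90 (log2), beside -0.02 over all genes. All 3 H1 genes fell, as did 4 of 6 H2A, 8 of 13 H2B and 2 of 4 H3 genes, while of the 7 H4 genes HIST4H4 rose and none was called lower. HIST1H2AC fell most, by 2.99 ± 0.24 (7.93-fold lower, adjusted p = 2.04e-33), followed by HIST3H2A at -2.07 ± 0.27, HIST1H2BD at -2.03 ± 0.29 and HIST1H1D at -1.96 ± 0.44, in the authors' deposited table. HIST2H2BE was at -1.71 ± 0.30, HIST1H3H at -1.63 ± 0.33, HIST1H2BK at -1.31 ± 0.34, HIST1H3E at -1.10 ± 0.30 and HIST1H1C at -0.92 ± 0.21 in the authors' deposited table, all called. The other called genes lay between -1.34 ± 0.44 for HIST1H2BF and -0.85 ± 0.30 for HIST1H2AG in the authors' deposited table. They were HIST1H2BH at -1.30 ± 0.31, HIST1H2AK at -1.30 ± 0.44, HIST1H1E at -1.22 ± 0.39, HIST2H2BF at -1.21 ± 0.44, HIST1H2BC at -1.10 ± 0.35 and HIST1H2BJ at -0.90 ± 0.31 in the authors' deposited table. HIST1H4H, the H4 gene with the highest mean, was at -0.76 ± 0.32 and missed the threshold (adjusted p = 0.0552; 0.0483 with a minimum mean of 10 and 0.0455 through the other tables), and HIST1H2BN was at 0.00 ± 0.21 in the authors' deposited table. HIST4H4 was at 1.22 ± 0.38 (2.33-fold, adjusted p = 0.0073) in the authors' deposited table, a call lost through the other tables (adjusted p = 0.164). The shCTRL gemcitabine libraries enter both this table and that of the knockdown under gemcitabine, so the opposite directions in these tables are not independent of each other. RNA was taken from whole cultures, so fewer cells that make a transcript and less of it in each cell cannot be told apart.

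Set against untreated shCTRL cells, the 3 other groups give each gene's level in the whole design. HIST1H2AC stood at 2.99-fold in shE4F1 cells with gemcitabine, 4.30-fold in untreated shE4F1 cells and 0.126-fold in shCTRL cells with gemcitabine, in the authors' deposited tables. For HIST2H2BE the levels in the same order were 2.48-fold, 3.71-fold and 0.306-fold, and for HIST1H2BD they were 1.98-fold, 2.54-fold and 0.244-fold, in the authors' deposited tables. HIST1H4H was at 4.84-fold, 6.49-fold and 0.590-fold in that order in the authors' deposited tables. The treated shE4F1 cells thus stayed above untreated shCTRL cells for these 4 genes (adjusted p = 5.39e-13, 9.13e-07, 0.000667 and 9.19e-19 in the authors' deposited table). HIST1H1C was at 1.07-fold in the treated shE4F1 cells (adjusted p = 0.771), 1.73-fold in the untreated shE4F1 cells and 0.527-fold in the treated shCTRL cells in the authors' deposited tables. HIST3H2A was below untreated shCTRL cells in all 3 groups, at 0.436-fold, 0.574-fold and 0.239-fold in the same order, in the authors' deposited tables.

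**Figure D1:**
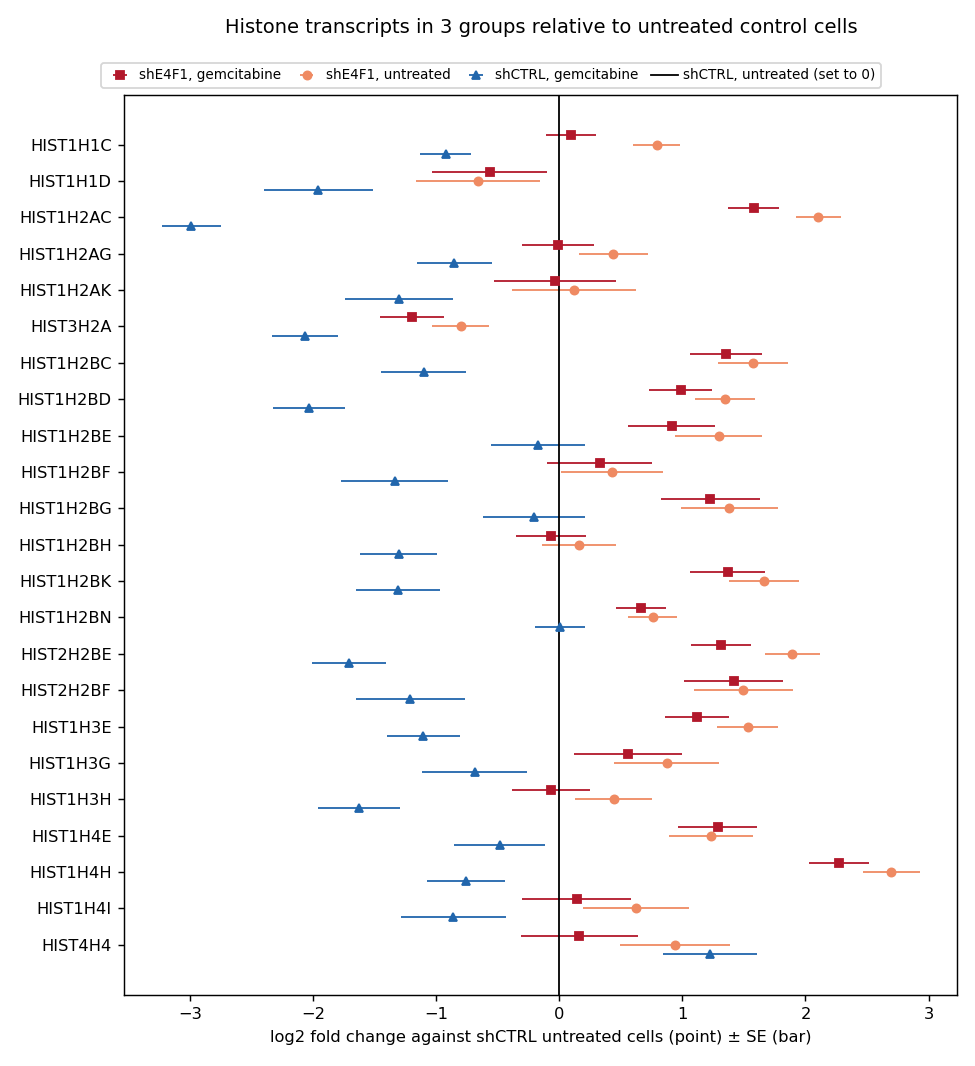
Log2 fold change (x axis, point, with its SE as a bar) of the histone genes called in either knockdown comparison and listed in all tables, in 3 groups against untreated shCTRL cells (black line at 0). HIST1H2AC shows the widest span, from -2.99 in shCTRL cells with gemcitabine to 2.1 in untreated shE4F1 cells, while HIST3H2A lies left of the line in all 3 groups.

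Over the whole set, 12 of 32 histone genes were higher and 3 were lower in shE4F1 cells with gemcitabine than in untreated shCTRL cells, where 32.2% of 19724 genes were called, 15.8% higher and 16.3% lower, and the median was 0.15 (log2). The 12 were 8 H2B genes, HIST1H2AC, HIST1H3E, HIST1H4E and HIST1H4H. The 3 lower genes were HIST2H2AC at -1.60 ± 0.52, HIST3H2A at -1.20 ± 0.26 and HIST1H1E at -1.15 ± 0.47 in the authors' deposited table. For HIST1H1E the call (adjusted p = 0.0444) was lost when fold changes were centred on the median gene (adjusted p = 0.0583).

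Within shE4F1 cells the effect of gemcitabine was derived as the difference between that table and the untreated knockdown table, with a two-sided normal test. None of 37 histone genes was called, where 1.11% of 21080 genes were called, 0.925% higher and 0.185% lower, and 1 histone gene was lower at an unadjusted p under 0.05. The median was -0.31 (log2), beside -0.02 over all genes. HIST1H2AC was at -0.52 ± 0.27 (adjusted p = 0.815), HIST2H2BE at -0.58 ± 0.33 (adjusted p = 0.92) and HIST1H1C at -0.69 ± 0.28 (adjusted p = 0.393). Untreated shCTRL libraries enter both tables, so this SE is too large and few genes of any kind could pass; a missed threshold here does not show that the drug left these transcripts alone.

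Whether the knockdown acted differently under the drug was tested directly, by subtracting the effect in untreated cells from the effect under the drug; these 2 tables share no library. This difference was positive and called for 6 of 35 histone genes and negative for 1, where 5.43% of 20923 genes were called, 2.81% positive and 2.63% negative, and the median was 0.53 (log2), beside 0.04 over all genes. HIST1H2AC had the largest, at 2.64 ± 0.26 (6.22-fold, adjusted p = 1.23e-20), then HIST1H1D at 2.33 ± 0.72 (adjusted p = 0.0283), HIST1H2BD at 1.89 ± 0.33 (adjusted p = 2.11e-06) and HIST3H2A at 1.75 ± 0.38 (adjusted p = 0.000397). HIST2H2BE at 1.30 ± 0.32 (adjusted p = 0.00281) and HIST1H2BK at 1.26 ± 0.39 (adjusted p = 0.0271) completed the 6. The negative one was HIST4H4, at -2.07 ± 0.60 (adjusted p = 0.0151). For HIST1H4H the difference was 0.47 ± 0.31 (adjusted p = 0.504) and for HIST1H1C 0.29 ± 0.24 (adjusted p = 0.641), so a difference in their knockdown effect was not detected. The difference was also computed from the 2 tables of treated cells against untreated shCTRL cells and, again, the untreated knockdown table. Untreated shCTRL libraries enter all 3, so these SEs are larger by construction. The values of the 6 positive genes were also lower by this route, as with HIST1H2BK at 1.01 in place of 1.26. By that route 3 of the 6 positive calls remained (HIST1H2AC, HIST1H2BD and HIST3H2A) and that of HIST4H4 was lost.

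**Figure D2:**
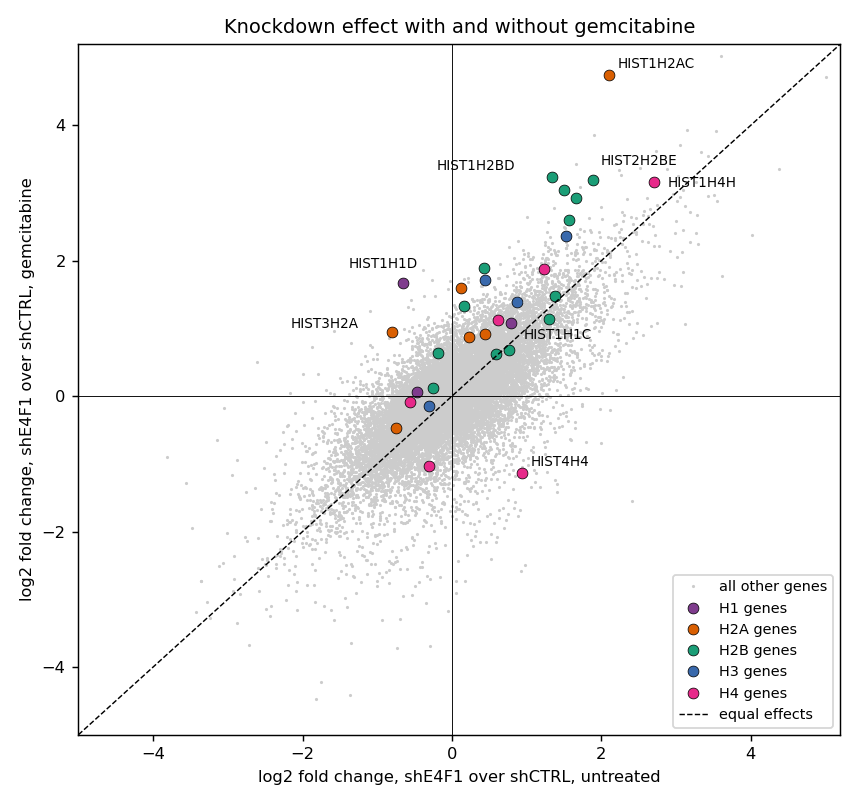
Knockdown effect (log2 fold change, shE4F1 over shCTRL) in untreated cells on the x axis and under gemcitabine on the y axis, with histone genes coloured by class over all other genes in grey and a dashed line of equal effects. HIST1H2AC (2.1 and 4.74) lies far above the line, HIST1H4H (2.70 and 3.17) close to it, and HIST4H4 (0.94 and -1.13) below it.

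Of the 32 histone genes tested in both knockdown tables, 13 rose in both conditions, 8 rose under gemcitabine with no call untreated, 9 were called in neither, and HIST3H2A and HIST4H4 made up the rest. The 9 uncalled genes were HIST1H1E, HIST1H2AE, HIST1H2BJ, HIST1H2BO, HIST1H3B, HIST1H4C, HIST1H4J, HIST2H2AC and HIST3H2BB. Their means in the untreated table ran from 4.35 to 42.9 normalised counts, so a change in them was harder to detect than in the 13, whose means there ran from 22.9 to 1004. The means include the shE4F1 libraries, in which the 13 were higher, so they are not independent of the calls. Under gemcitabine 20 of 28 HIST1 genes, 2 of 4 HIST2 genes and 1 of 2 HIST3 genes rose in shE4F1 cells, beside 20.3% of all genes.

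**Figure D3:**
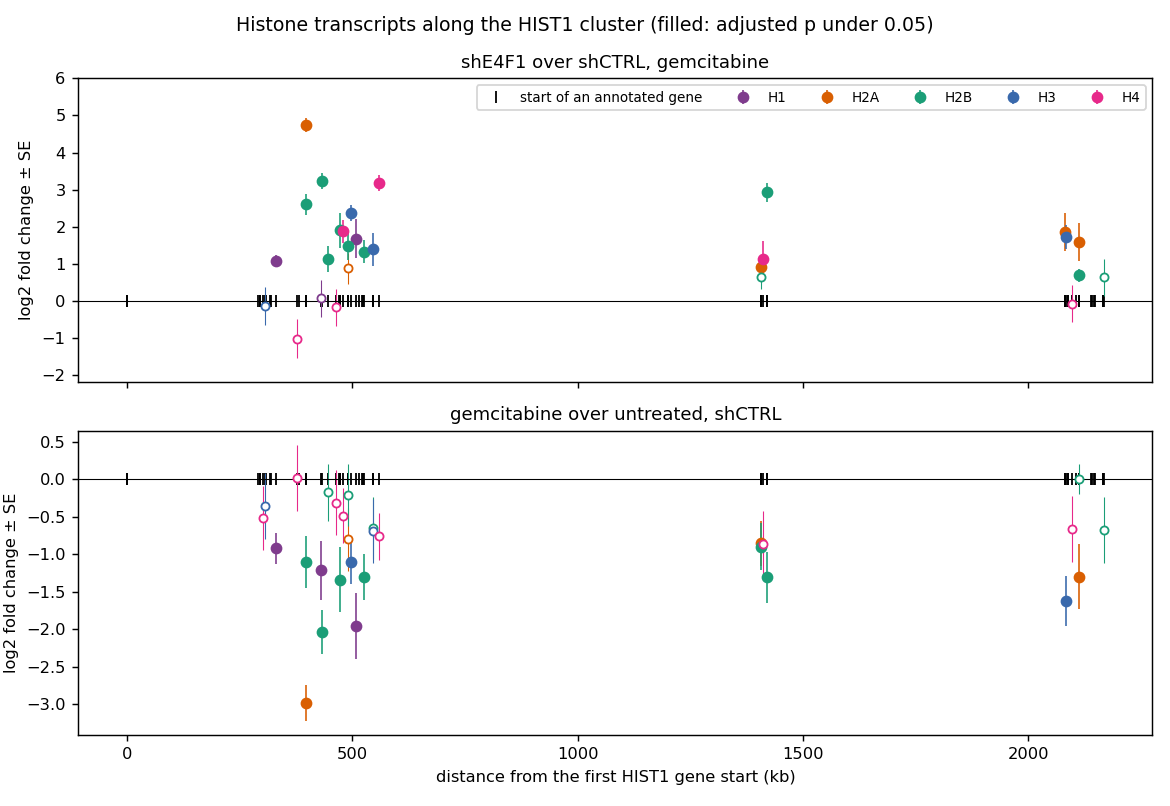
Log2 fold change with its SE (y axis) of the listed HIST1 genes by distance in kb from the first HIST1 gene start (x axis), for shE4F1 over shCTRL cells under gemcitabine (top) and gemcitabine over untreated shCTRL cells (bottom); ticks mark all annotated gene starts and filled points adjusted p under 0.05. Most values lie above 0 in the top panel and below 0 in the bottom one, with HIST1H2AC at 4.74 in the top panel and -2.99 in the bottom one.

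Many H2A and H2B genes lie head to head and share the short stretch between their starts, and the pairs show whether partners moved alike. By annotated gene bounds GENCODE 29 holds 13 such pairs of the set, and both partners were listed in 7. In HIST1H2BC and HIST1H2AC, both rose in shE4F1 cells in both conditions and both fell with gemcitabine in shCTRL cells, with the values given above. In HIST2H2BE and HIST2H2AC, the H2B gene rose by 3.20 ± 0.23 under gemcitabine while the H2A partner was at -0.47 ± 0.52 (adjusted p = 0.522), and untreated they were at 1.89 ± 0.22 and -0.75 ± 0.50, in the authors' deposited tables. HIST1H2BG rose by 1.49 ± 0.39 with its partner HIST1H2AE at 0.87 ± 0.43 (adjusted p = 0.0943), and HIST1H2AG rose by 0.92 ± 0.26 with its partner HIST1H2BJ at 0.64 ± 0.32 (adjusted p = 0.103), under gemcitabine in the authors' deposited table. The authors' deposited table also had HIST3H2A higher by 0.95 ± 0.30 with its partner HIST3H2BB at 0.13 ± 0.45 (adjusted p = 0.866). HIST1H2BK rose while its partner HIST1H2AH, with a mean of 2.67 normalised counts, was listed in the untreated knockdown table alone. HIST1H2AI rose under gemcitabine, and its partner HIST1H2BL, with a mean of 2.54, was likewise listed untreated alone. Among these 13 pairs, both partners were thus called higher in 1 pair in each knockdown comparison. Both were lower in 2 pairs with gemcitabine in shCTRL cells (HIST1H2BC with HIST1H2AC, and HIST1H2BJ with HIST1H2AG). The bounds left out HIST1H2AK and HIST1H2BN, because the annotated HIST1H2BN gene spans HIST1H2AK. Their RefSeq starts do lie head to head, and both were called higher in shE4F1 cells under gemcitabine. Untreated, only HIST1H2BN of these was called higher.

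The stretches between the starts of the first 2 of these pairs are shown whole, from RefSeq promoters (GRCh38.p14, + strand), because partners moved together in one and not in the other. Capitals mark the octamer ATTTGCAT, bound by POU factors, the CCAAT box and TATAAA, each searched on both strands.
HIST1H2BC to HIST1H2AC, chr6:26123927-26124171: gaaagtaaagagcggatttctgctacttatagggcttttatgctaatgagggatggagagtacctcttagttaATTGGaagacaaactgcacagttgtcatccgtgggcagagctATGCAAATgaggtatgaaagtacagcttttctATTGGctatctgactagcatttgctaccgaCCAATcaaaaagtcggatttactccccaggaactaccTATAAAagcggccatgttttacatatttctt
HIST2H2BE to HIST2H2AC, chr1:149886683-149886917: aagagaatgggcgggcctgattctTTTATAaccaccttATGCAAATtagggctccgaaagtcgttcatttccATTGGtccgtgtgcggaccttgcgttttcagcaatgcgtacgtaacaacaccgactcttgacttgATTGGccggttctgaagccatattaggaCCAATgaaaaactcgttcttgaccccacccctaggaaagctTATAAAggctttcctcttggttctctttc
Both hold 1 octamer, 3 CCAAT boxes and a TATAAA towards the H2A gene, and the second holds another TATAAA towards the H2B gene. In the 250 bases before the start, 15 of 37 listed genes with a RefSeq promoter (40.5%) held the octamer, 11 of them among 15 H2B genes and 4 among 7 H2A genes, against 2.03% of 27305 genes. Each of these 4 H2A genes shares its octamer with the H2B gene it faces, so such a site was counted for both partners. CCAAT was found in 81.1% of the 37 and 37.0% of all genes, and TATAAA in 62.2% of the 37 and 13.0% of all genes. Among the genes called higher in shE4F1 cells under gemcitabine 10 of 23 held the octamer, and among those not called 4 of 10 did. The core TGACGT, part of the sites that E4F1 is known to bind, was in 10 of the 37 promoters (27.0%) and in 8.62% of all promoters. HIST1H2AG and HIST1H2BJ share the same site, as do HIST3H2A and HIST3H2BB, and it was counted for both partners. The core was in 6 of the 23 genes called higher under gemcitabine and in 4 of the 10 not called. The promoter of HIST1H4H, the gene that rose most in untreated shE4F1 cells, holds the core in both orientations, overlapping in TGACGTCA, which is shown in capitals in the 250 bases before its start.
HIST1H4H, chr6:26285535-26285784, - strand: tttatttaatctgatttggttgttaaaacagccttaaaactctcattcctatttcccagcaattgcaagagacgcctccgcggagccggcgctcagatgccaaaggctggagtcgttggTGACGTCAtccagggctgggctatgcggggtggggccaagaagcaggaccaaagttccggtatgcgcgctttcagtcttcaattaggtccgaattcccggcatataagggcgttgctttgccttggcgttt
The same TGACGTCA lies before HIST1H4E and HIST1H2BK, called higher in both conditions, and before HIST1H3B, called in neither. No TGACGT was found in the promoters of HIST1H2AC, HIST1H2BC, HIST1H2BD and HIST2H2BE, which rose in both. A link between the core and the knockdown effect was not tested. These matches describe letters in a window, and binding was not measured in the tables used here.

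The listed genes differed in their annotated end. Genes annotated to run at least 200 bases past the stop codon were listed in 23 of 27 cases (85.2%), genes ending within 200 bases of it in 7 of 15, and genes annotated only to the stop codon in 10 of 33 (30.3%). The 15 include by default the unlisted pseudogenes HIST2H2BA and HIST2H2BB, which have no annotated stop codon. Pseudogenes HIST3H2BA among the 15 and HIST2H2BC and HIST2H2BD among the 27 were placed by distance from the stem-loop. This split was chosen after the values had been seen and is given as a description. Under gemcitabine 18 of 22 genes with long ends were higher in shE4F1 cells and 1 was lower, against 4 higher of 8 that end at the stop codon and 1 higher of 5 between, with medians of 1.44, 0.85 and 0.07 (log2). Untreated, the counts were 11 higher and 1 lower of 21, 2 higher of 7, and none called of 5. With gemcitabine in shCTRL cells 12 of 21 genes with long ends fell and 1 rose, 4 of 8 that end at the stop codon fell, and 1 of 4 between fell. Over all genes 20.3% were called higher and 20.8% lower under gemcitabine, and 17.5% and 19.3% untreated. With gemcitabine in shCTRL cells the shares were 14.5% higher and 13.5% lower. The 1 of 5 between under gemcitabine thus lay near the share of all genes. Genes with long ends also had more counts, with a median mean of 44.1 normalised counts under gemcitabine against 4.97 for those that end at the stop codon and 4.69 for those between. The parts of annotated length, number of counts and sequence shared with other genes in which genes were listed or called were not tested.

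**Figure D4:**
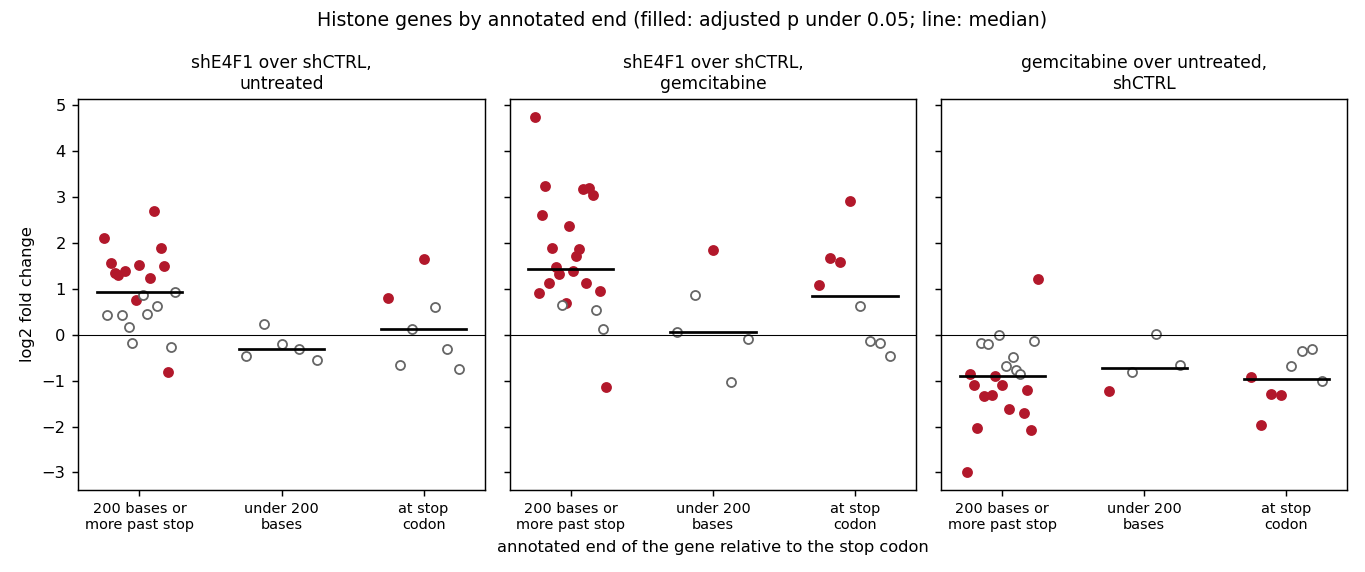
Log2 fold change (y axis) of the tested histone genes by annotated end (x axis) in 3 comparisons, with filled points at adjusted p under 0.05 and a line at each median. The 22 genes with long ends have a median of 1.44 under gemcitabine in shE4F1 over shCTRL cells and hold the 4 highest values; in shCTRL cells treated over untreated the medians of all kinds of end lie below 0.

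Reads of 50 bases can be shared by near-identical copies, or by overlapping genes where strands are not kept apart. Of the 50-base stretches in annotated transcripts of a listed gene, a median of 97.4% occurred in no other gene on either strand, and 28 of 40 genes had at least 90%. The share was under 50% in 5 genes: HIST1H2AI (37.7%), HIST1H2BK (25.9%), HIST1H4J (18.8%), HIST2H4A (2.46%) and HIST1H2AK (0%). How such reads were assigned is not given in the sources used here, so the values of these 5 are uncertain; without them 20 histone genes were higher in shE4F1 cells under gemcitabine and 12 untreated. HIST1H2AK lies within HIST1H2BN on the other strand, and HIST1H2BN is the gene that shares most of its stretches. HIST2H2BF overlaps FCGR1A, and HIST1H2BD and HIST1H2BE overlap the antisense gene AL353759.1, likewise on opposite strands. The strand setting of the counting is not given in the sources used here either, so reads of overlapping genes cannot be told apart in these tables. By gene bounds there are also overlaps on the same strand, which no strand setting separates. They are HIST2H2BF with AC243772.2 (7362 bases), HIST1H2BN with HIST1H2AL (393 bases) and HIST1H2BD with LARP1P1 (292 bases).

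Genes whose products process or degrade histone mRNA were counted in 1 list with general poly(A) factors, 28 in all. In shE4F1 cells under gemcitabine 15 fell (53.6%) and 5 rose (17.9%), beside 20.8% and 20.3% of all genes. Untreated, 13 fell (46.4%) and 6 rose (21.4%), beside 19.3% and 17.5% of all genes, so the shares that rose lay near those of all genes. The median SE of these 28 was 0.10 under gemcitabine and 0.15 untreated, beside 0.21 over all tested genes in both. A change of a given size was therefore called more readily in this list. Through the other tables, with larger SEs by construction, 5 fell and 2 rose under gemcitabine, and the calls of SLBP, SYMPK, CPSF3, CSTF2 and ERI1 there were among those lost. MIF4GD, a partner of SLBP in the translation of stem-loop mRNA, fell most, to -1.67 ± 0.14 (log2) under gemcitabine and -2.41 ± 0.16 untreated in the authors' deposited tables. SLBP, the stem-loop binding protein, fell by 0.28 ± 0.10 and by 0.44 ± 0.15 in the authors' deposited tables, under gemcitabine and untreated. Of the U7 particle, LSM11 fell by 1.10 ± 0.11 and by 0.64 ± 0.16 in that order, whereas LSM10 was at -0.14 ± 0.16 and -0.32 ± 0.21 and was called in neither, in the authors' deposited tables. ZNF473, a partner of that particle, fell by 0.86 ± 0.12 and by 0.38 ± 0.15, and CASP8AP2, which bridges to the cleavage complex, was at -0.66 ± 0.16 (adjusted p = 0.000125) and -0.28 ± 0.14 (adjusted p = 0.102) in the authors' deposited tables. In the cleavage complex, the scaffold SYMPK fell by 0.38 ± 0.10 and by 0.43 ± 0.13, the endonuclease CPSF3 was at -0.27 ± 0.10 (called) and -0.33 ± 0.16 (not called), and CSTF2 rose by 0.43 ± 0.12 and by 0.47 ± 0.16, in the authors' deposited tables.

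Several factors used for ordinary poly(A) ends moved as well. CSTF1 fell by 1.08 ± 0.10 under gemcitabine and by 0.59 ± 0.15 untreated, CPSF1 rose by 0.78 ± 0.11 and by 0.69 ± 0.14, and the poly(A) polymerase PAPOLA fell by 0.48 ± 0.09 and by 0.64 ± 0.14, in the authors' deposited tables. CPSF2 and CPSF4 fell by 0.41 ± 0.09 and by 0.31 ± 0.11 under gemcitabine and by 0.59 ± 0.15 and by 0.74 ± 0.15 untreated, in the authors' deposited tables. CSTF2T rose by 0.36 ± 0.10 and by 0.69 ± 0.16, and CSTF3 was at 0.12 ± 0.11 (not called) and 0.51 ± 0.17 (called), under gemcitabine and untreated, in the authors' deposited tables. Of the decay factors, the exonuclease ERI1 fell by 0.44 ± 0.10 and by 0.76 ± 0.16, LSM1, of the decay-linked LSM ring, fell by 0.58 ± 0.13 and by 0.49 ± 0.16, and the uridylyltransferase ZCCHC11 rose by 0.70 ± 0.10 and by 0.56 ± 0.14, under gemcitabine and untreated, in the authors' deposited tables. With gemcitabine in shCTRL cells 6 of the 28 rose (21.4%) and 4 fell (14.3%), beside 14.5% and 13.5% of all genes, and 3 rose through the other tables. CASP8AP2 rose by 0.94 ± 0.18, LSM11 by 0.92 ± 0.15 and ZNF473 by 0.61 ± 0.15, PARN fell by 0.92 ± 0.13, ZCCHC11 by 0.61 ± 0.14, PAPOLA by 0.58 ± 0.14 and MIF4GD by 0.50 ± 0.14, in the authors' deposited table. The value of SLBP there, from the authors' deposited table, was 0.04 ± 0.14 (adjusted p = 0.884). These are levels of mRNA, and no protein was measured in the tables used here.

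Among 14 regulators of histone transcription, 4 fell (28.6%) and 3 rose (21.4%) in shE4F1 cells under gemcitabine, and 3 fell (21.4%) and 2 rose (14.3%) untreated. These shares lay near those of all genes (20.8% and 20.3% under gemcitabine, 19.3% and 17.5% untreated), and by way of the other tables, 2 fell and 0 rose under gemcitabine. NPAT, the coactivator of the histone clusters, was called in neither, at 0.16 ± 0.13 and 0.29 ± 0.14 in the authors' deposited tables, nor with the drug in shCTRL cells. CDK2, the kinase that activates NPAT at S phase entry, fell by 1.61 ± 0.14 and by 1.47 ± 0.18, and its cyclin CCNE1 was at -1.28 ± 0.15 (called) and -0.36 ± 0.24 (not called), in the authors' deposited tables. POU2F1, which binds the octamer, rose by 0.58 ± 0.11 and by 0.75 ± 0.15, and HINFP, which binds H4 promoters, rose by 0.54 ± 0.11 and by 0.36 ± 0.14, in the authors' deposited tables. In shCTRL cells gemcitabine raised CDK2 by 0.77 ± 0.16, CCNE1 by 1.06 ± 0.22, CCNE2 by 1.89 ± 0.26, RBL1 by 0.73 ± 0.16 and E2F1 by 1.31 ± 0.14, and lowered the S and G2 phase cyclin CCNA2 by 1.09 ± 0.20, in the authors' deposited table. CCNA2 was at -0.04 ± 0.15 (not called) in shE4F1 over shCTRL cells under gemcitabine and fell by 0.71 ± 0.18 untreated in the authors' deposited tables. The part of cell cycle position in the histone values was not tested.

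Of 23 histone chaperone genes, whose products carry new histones to DNA, 11 fell (47.8%) and none rose with the knockdown in untreated cells, beside 19.3% and 17.5% of all genes. Their median SE was 0.14 untreated and 0.11 under gemcitabine, beside 0.21 over all tested genes in both, so changes were called more readily. CHAF1B and CHAF1A, subunits of the replication-coupled assembly factor, fell by 1.02 ± 0.20 and by 0.99 ± 0.16, NASP by 0.62 ± 0.14 and ASF1B by 0.57 ± 0.22 untreated in the authors' deposited table. The same table had MMS22L at -0.89 ± 0.15, HJURP at -0.68 ± 0.16, RBBP7 at -0.68 ± 0.12, DNAJC9 at -0.65 ± 0.14, HAT1 at -0.61 ± 0.15 and SSRP1 at -0.51 ± 0.14, all called, among the authors' deposited values. Under gemcitabine 8 fell (34.8%) and 4 rose (17.4%), beside 20.8% and 20.3% of all genes, and by way of the other tables, 2 fell and 2 rose. CHAF1B fell by 0.93 ± 0.12, ASF1B by 0.64 ± 0.13, HAT1 by 0.62 ± 0.12 and MMS22L by 0.53 ± 0.12, while HIRA, which deposits a replacement H3 outside S phase, rose by 0.96 ± 0.18 and its partner UBN1 by 0.65 ± 0.11, in the authors' deposited table. With gemcitabine in shCTRL cells 6 rose (26.1%) and 4 fell (17.4%), beside 14.5% and 13.5% of all genes, and 3 rose and 2 fell through the other tables. The called genes included ASF1B at 1.38 ± 0.22, CHAF1B at 1.07 ± 0.19, TONSL at 0.65 ± 0.21 and CHAF1A at 0.62 ± 0.16, all higher, and NAP1L1 at -0.76 ± 0.13, HIRA at -0.72 ± 0.20 and ASF1A at -0.65 ± 0.15, all lower, in the authors' deposited table.

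The replacement histone genes, most of which can also be expressed outside S phase from ordinary polyadenylated mRNA, held no call in the upward direction in any deposited comparison. In shE4F1 cells none of 12 rose and 4 fell (33.3%) under gemcitabine, beside 20.3% and 20.8% of all genes, and none of 11 rose and 5 fell (45.5%) untreated, beside 17.5% and 19.3%. Median SEs here were 0.13 under gemcitabine and 0.18 untreated, beside 0.21 over all tested genes in both. With gemcitabine in shCTRL cells none of 12 rose and 4 fell, beside 14.5% and 13.5% of all genes. By way of the other tables, 2 fell under gemcitabine, and the call of H2AFZ was lost. H2AFV fell by 1.48 ± 0.12 and by 1.44 ± 0.18 and H3F3B by 0.55 ± 0.11 and by 0.72 ± 0.12, under gemcitabine and untreated, in the authors' deposited tables. H2AFZ was at -0.37 ± 0.10 (called) and -0.34 ± 0.19 (not called) in the authors' deposited tables. The linker variant H1F0 was at -0.22 ± 0.12 under gemcitabine (adjusted p = 0.139) and fell by 1.06 ± 0.16 untreated, and it fell by 1.22 ± 0.16 with gemcitabine in shCTRL cells, in the authors' deposited tables. H1FX was at -0.37 ± 0.16 (adjusted p = 0.0537), -1.40 ± 0.20 and -0.91 ± 0.21 in the same order in the authors' deposited tables, the last 2 called. CENPA, the centromeric H3, fell by 0.64 ± 0.16, by 1.23 ± 0.18 and by 0.95 ± 0.18 in that order, and H3F3A fell by 0.85 ± 0.19 with gemcitabine in shCTRL cells, in the authors' deposited tables.

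**Figure D5:**
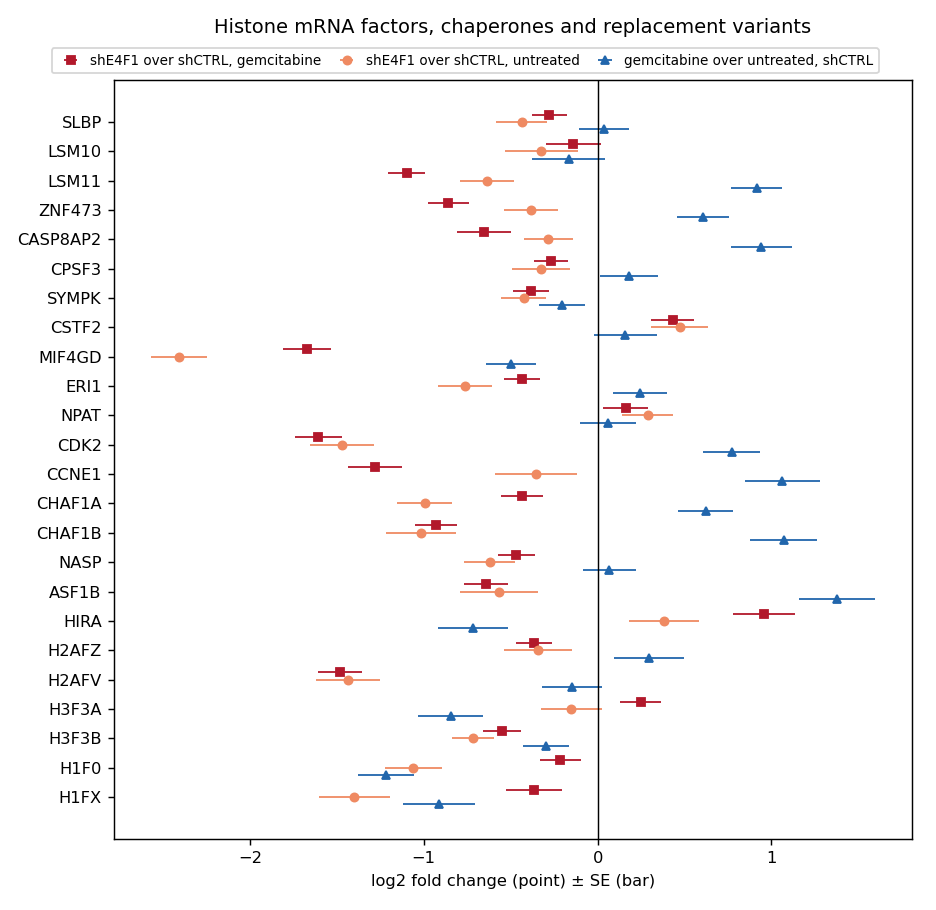
Log2 fold change (x axis, point, with its SE as a bar) of genes of histone mRNA processing, histone transcription, histone assembly and replacement histones in 3 comparisons. MIF4GD, CDK2 and H2AFV lie far left of 0 in shE4F1 over shCTRL cells, while LSM11, CASP8AP2, CHAF1B and ASF1B lie to the right with gemcitabine in shCTRL cells.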

How the data were processed

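Per the labels, RNA went through a stranded mRNA kit and was sequenced from 1 end for 50 bases. The submitters' processing notes name DESeq2 1.14.1 in R 3.4.0, HTSeq 0.9.0, TopHat2 2.1.1 with Bowtie2 2.2.9, and the build GRCh38.p7. They do not give the annotation release, the strand setting, the filters or the design formula.

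All values rest on 4 tables deposited by the authors, from their DESeq2. Per the file headers each holds the mean normalised count (a score), the log2 fold change and SE, the Wald score, the p-value and its adjusted p-value (Benjamini-Hochberg). Missing adjusted p-values stayed missing. The deposited count table has 12 columns whose names match no label, and none was used, so depth per library is not given and precision is given by the SE and the mean normalised count. Genes counted only through one group can pass the authors' filter because they differ. Counts of calls are given over tested genes and not over all members, which does not remove this effect.

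A further 2 comparisons were derived in Python 3.11.15 (scipy 1.17.1, pandas 2.3.3, numpy 2.4.6; figures with matplotlib 3.10.9) from differences of deposited log2 values, with SEs from summed variances, a two-sided normal test and adjustment over all genes. Both were tested on simulated data. Annotation, stem-loops and poly(A) signals came from GENCODE 29, where 39 of 40 identifiers matched, and promoters from RefSeq for 37 genes.

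Genes named are those called, up to 25 a comparison by size, those called against the majority, the member with the highest mean of each class, pairs with a called member, and called genes of the related lists with a change of at least 0.5 together with a fixed set of core factors. The members and lists were chosen with earlier results of these data known, and CCNA2 in the gemcitabine comparison was named after its values were seen. Alternatives were centring on the median gene, a minimum mean of 10, the same contrast through other tables, and leaving out genes of low uniqueness, the last chosen after seeing the data.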

Additional observations from a re-analysis of the deposited data

Results flagged for a closer look

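A difference between the knockdown effect under gemcitabine and that in untreated cells was called for 7 histone genes and, at a size of at least 0.5 (log2), for 7 related genes, by the two-sided normal test of the difference with adjustment over all genes. Among histone genes it was positive for HIST1H2AC at 2.64 ± 0.26 (log2, SE), HIST1H1D at 2.33 ± 0.72, HIST1H2BD at 1.89 ± 0.33, HIST3H2A at 1.75 ± 0.38, HIST2H2BE at 1.30 ± 0.32 and HIST1H2BK at 1.26 ± 0.39, and negative for HIST4H4 at -2.07 ± 0.60. HIST1H1D rests on a mean of 7.26 normalised counts and HIST4H4 on 17.7. Reads of HIST1H2BK can be shared with near-identical copies.

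Among genes of histone mRNA processing and decay the difference was 0.74 ± 0.21 for MIF4GD (adjusted p = 0.0154), 0.71 ± 0.16 for the deadenylase gene PARN (adjusted p = 0.000976) and -0.61 ± 0.18 for the uridylyltransferase gene ZCCHC6 (adjusted p = 0.0184). For CCNE1 it was -0.92 ± 0.28 (adjusted p = 0.0261) and for the transcription factor gene E2F1 0.59 ± 0.19 (adjusted p = 0.0422). The linker variants H1FX and H1F0 had 1.03 ± 0.26 (adjusted p = 0.00326) and 0.84 ± 0.20 (adjusted p = 0.00188). Through the other tables none of these 7 related calls remained, and centring on the median gene ended that of E2F1 (adjusted p = 0.0983). No library could be examined as an outlier, since values of single libraries are not analysed here.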

How the results depend on the processing

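No paired analysis was possible because the columns of the count table match no label, so no fit at the level of libraries was made; for the same reason leaving out single libraries, another count test, another normalization and no filter on low counts were not run. Taking a contrast through the other tables, whose summed SEs are larger by construction, left 13 histone genes higher and 0 lower for the knockdown under gemcitabine (23 and 1 as deposited). It left 0 higher with gemcitabine in shCTRL cells (1 as deposited, 17 lower against 13), 3 positive and 0 negative for the difference in knockdown effect (6 and 1), and 1 pair in place of 2 with both partners lower. Of the related genes, 28 of 43 calls for the knockdown under gemcitabine, 9 of 31 with gemcitabine in shCTRL cells and all 7 for the difference were lost by that route, as was that of E4F1 under gemcitabine (adjusted p = 0.0772). No called histone value changed direction under centring, the minimum mean or the other route. The 10 calls lost under gemcitabine were those of HIST1H1D, HIST1H2AG, HIST1H2AK, HIST1H2BE, HIST1H2BG, HIST1H2BN, HIST1H3G, HIST1H4I, HIST3H2A and HIST4H4. The 33 members in all 4 tables added up within 0.42 (log2), with a median gap of 0.12. The gap is the deposited knockdown effect under gemcitabine minus that through the other tables. It was positive for all 33 but HIST1H4C (-0.01) and HIST4H4 (-0.07), so the deposited effects mostly lay higher. The same gap enters the difference in knockdown effect, with 0.28 for HIST1H1D and 0.25 for HIST1H2BK. HIST1H4H was called lower with gemcitabine in shCTRL cells with a minimum mean of 10 (adjusted p = 0.0483) and by the other route (adjusted p = 0.0455), where HIST4H4 lost its call (adjusted p = 0.164). With that minimum mean HIST1H3H gained a call for the difference (adjusted p = 0.05). Centring on the median gene moved the share of positive calls for the difference over all genes to 36.5%, against 51.6% as deposited, and changed no histone call there. Genes with few counts limit the rest: 7 of the 40 histone genes in the untreated knockdown table had no adjusted p.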
